A study of Mus musculus with 147 samples.

Results

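The cells described here are wild-type mouse cells of E6.5 (embryonic day 6.5) that carry an epiblast transcript and little of a visceral endoderm one. They were chosen as the cells with at least 50 CPM (counts per 1000000 unique molecular identifiers, UMIs, of the cell) of <i>Pou3f1</i>, a POU-domain transcription factor of the epiblast and neural ectoderm, and under 500 CPM of <i>Apoa1</i>, an apolipoprotein of the visceral endoderm. The rule kept 302 of the 731 E6.5 cells with more than 2000 genes and 10000 to 1000000 UMIs, of 11598 such wild-type cells in the whole series. The mouse epiblast at E6.5 is the cup-shaped epithelium that gives rise to the fetus, and it is wrapped by the visceral endoderm and capped by the extraembryonic ectoderm, a trophoblast tissue that signals back with BMP4. Its cells have left naive pluripotency, the state of the blastocyst, and pass through a formative towards a primed state, in which <i>Otx2</i>, <i>Fgf5</i> and <i>Dnmt3b</i> are expressed. BMP and WNT signals induce the primitive streak at one end of the cup and the primordial germ cells (PGCs) beside it.

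Single cells of mouse male germ cells and gonads at 28 time-points were profiled by STRT-seq in a modified form that counts UMIs at the 3' ends of transcripts. All the groups used here are wild-type embryos of C57BL/6 females mated with males of the BVSC line, which carries mVenus under <i>Blimp1</i> (<i>Prdm1</i>) and ECFP under <i>Stella</i> (<i>Dppa3</i>) control. They are E6.5 in 3 replicates, E7.5 in 4, and BVSC-positive cells sorted at E9.5 (2 replicates) and E10.5 (3 replicates). Embryos were pooled, cells of E6.5 were picked by mouth pipette, and the table of cells gives the gate as random epiblast cells in replicates 1 and 2 and as random sorted cells in replicate 3. It gives no sex at E6.5, and 1 E10.5 replicate is labelled male while the other sorted pools carry no sex. At E10.5, per the study, male embryos were selected by PCR for <i>Sry</i>, a male-specific gene. Nothing in the labels says how embryos were divided between replicates. The study lists a number of embryos for each replicate and reports at least 2 independent biological replicates per time-point. A p-value here measures only the spread between these pools.

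The members came almost wholly from 1 replicate. In replicate 1 they were 293 of 469 cells, 62.5% (exact 95% interval 57.9 to 66.9%, counting error only). In replicate 2 they were 7 of 166 cells, 4.22% (1.71 to 8.5%), and in replicate 3 they were 2 of 96 cells, 2.08% (0.253 to 7.32%). Within replicate 1, the 5 libraries ranged from 46.1 to 77.9%. Replicates 2 and 3 stood apart in the rest of their cells as well. Their other cells carried 312 and 303 CPM of <i>T</i>, the brachyury factor of the primitive streak, against 2.22 and 28 CPM in the other cells of replicate 1 with <i>Apoa1</i> above and below 500 CPM. <i>Mesp1</i>, a factor of nascent mesoderm, was at 378 and 319 CPM in them against 1.09 and 18.5 CPM. Replicates 1 and 2 carry the same gate label, and what separates the replicates was not tested.

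**Figure D1:**
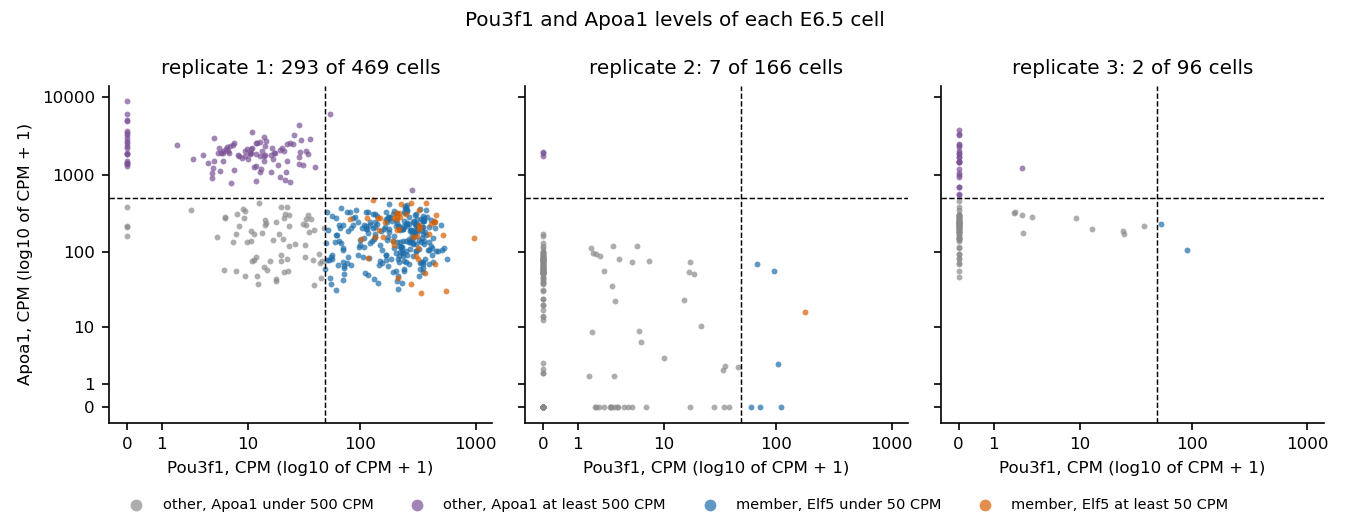
<i>Pou3f1</i> (x axis) and <i>Apoa1</i> (y axis) level of each E6.5 cell in CPM, both axes on a log10 scale of CPM + 1, in 1 panel per replicate, with the thresholds of 50 and 500 CPM as dashed lines. The members fill the lower right corner in replicate 1 (293 of 469 cells) and hold 7 of 166 and 2 of 96 cells in replicates 2 and 3.

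The values that chose the members are a description. <i>Pou3f1</i> (GENCODE M21 on mm10, chromosome 4, 124656807 to 124660655) ranged from 50.2 to 974 CPM with a median of 218 CPM, and 53 of the 302 members were under 100 CPM. The 3 members nearest to the threshold had 50.2, 50.7 and 51.5 CPM, and the 3 cells nearest to it from below had 48.7, 47 and 46.6 CPM, so no gap separates them. <i>Apoa1</i> (chromosome 9, 46228580 to 46230466) had a median of 162 CPM, with 469, 434 and 428 CPM in the 3 highest members. Only 2 cells with enough <i>Pou3f1</i> were kept out by it, at 634 and 6110 CPM. No cell with enough <i>Pou3f1</i> lay between 469 and 634 CPM. Below the threshold the levels were spread, as a limit of 250 CPM would have kept 226 cells of replicate 1 in place of 293.

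The 293 members of replicate 1 held 96625748 UMIs, with a median of 328613 UMIs and 9166 genes per cell. Of the 176 other cells of replicate 1, 70 were under 500 CPM of <i>Apoa1</i> (median 337557.5 UMIs) and the rest at or above it (262497.5 UMIs). The 7 members of replicate 2 had a median of 388307 UMIs, and the 2 of replicate 3 had 372614 and 383948. The 8 E6.5 libraries drew on the same 96 cell barcodes, 61 of which were found in all of them.

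Members were not one kind of cell. Of the 293 in replicate 1, 47 carried at least 50 CPM of <i>Elf5</i> (chromosome 2, 103411688 to 103450989), a transcription factor that keeps trophoblast stem cells. The threshold was chosen after the values were seen, at a gap, since 241 members had under 20 CPM, 5 had 20 to 50, 4 had 50 to 200 and 43 had at least 200. Each of the 5 libraries held between 7 and 11 of them, and replicate 2 held 1. <i>Pou5f1</i> (Oct4), the core factor of pluripotent cells, had a median of 321 CPM in the 246 <i>Elf5</i>-low members (10th to 90th percentile 241 to 400 CPM) and of 39.2 CPM in the <i>Elf5</i>-high ones (18 to 93.9 CPM). <i>Otx2</i> had medians of 232 and 10.7 CPM, and <i>Bmp4</i> of 1.86 and 254 CPM. <i>Pou3f1</i> had medians of 218 and 253 CPM. The rule asked at least 50 CPM of it in both kinds, so these values cannot show whether it separates them. The <i>Elf5</i>-high members thus go against the name epiblast, being high in markers of extraembryonic ectoderm and low in <i>Pou5f1</i> and <i>Otx2</i>, and the cells are called members below, <i>Elf5</i>-low or <i>Elf5</i>-high.

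**Figure D2:**
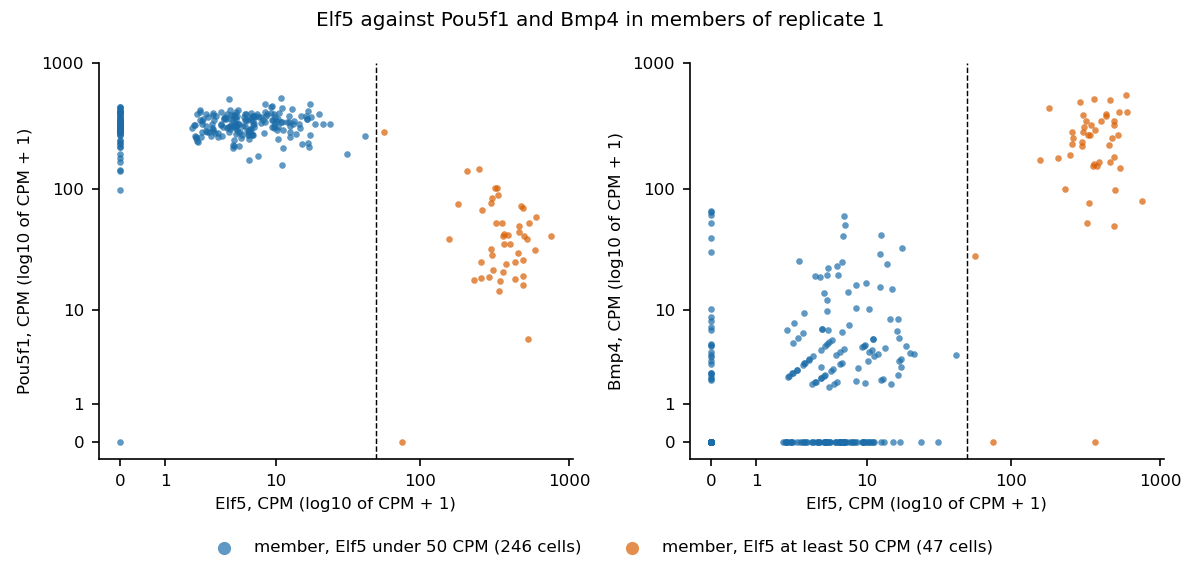
<i>Elf5</i> level (x axis) against <i>Pou5f1</i> (left) and <i>Bmp4</i> (right) of each member of replicate 1, in CPM on log10 scales of CPM + 1, with the 50 CPM line of <i>Elf5</i> dashed. The 47 <i>Elf5</i>-high members form a group of their own, low in <i>Pou5f1</i> (median 39.2 CPM) and high in <i>Bmp4</i> (median 254 CPM).

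The 2 kinds of member were also read in each library, for 4 genes. Summed over the <i>Elf5</i>-low members of a library, <i>Pou5f1</i> was at 312, 316, 318, 342 and 351 CPM, and over the <i>Elf5</i>-high members at 23.7, 42.2, 45.2, 78.6 and 79.2 CPM. <i>Otx2</i> was at 216 to 257 CPM against 12.4 to 45.7 CPM. <i>Bmp4</i> was at 3.89 to 9.76 CPM against 226 to 302 CPM, and <i>Esrrb</i>, which drives both naive pluripotency and trophoblast self-renewal, at 1.08 to 5.57 CPM against 124.2 to 158 CPM. The ranges of the 2 kinds of member did not overlap for any of these 4 genes, which also differed over all the same cells together. The share of all genes without overlap was not counted. Libraries of 1 replicate are no replicates of a condition, and how its embryos were divided between them is not given.

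Over all genes, 1316 of 10269 (12.8%) were at least 2-fold higher and 1088 (10.6%) at least 2-fold lower in <i>Elf5</i>-high than in <i>Elf5</i>-low members of replicate 1, among genes with a mean of at least 5 CPM. This is a count by fold with no test, since only replicate 1 held at least 10 cells of both kinds. Of the list for extraembryonic ectoderm and trophoblast, 21 of 24 other genes were higher and none lower, with a median log2 difference of 3.99 against 0.02 over all genes. <i>Bmp4</i> (256 against 5.98 CPM), <i>Sfmbt2</i>, a paternally expressed polycomb gene of trophoblast (299 against 7.53 CPM), the protease <i>Htra1</i> (290 against 7.8 CPM) and the connexin <i>Gjb5</i> (252 against 7.25 CPM) were among the leading higher genes. Among the leading lower genes were <i>Uchl1</i>, a neuronal ubiquitin hydrolase (10.9 against 162 CPM), <i>Gng3</i>, the D-type cyclin <i>Ccnd1</i> (19.6 against 248 CPM) and <i>Ifitm3</i>, an interferon-induced membrane protein (log2 difference -3.57). Of the formative and primed list 11 of 21 genes were lower and 2, <i>Sox3</i> among them, higher. Of the visceral endoderm list 13 of 23 genes were higher and 1, <i>Lrp2</i>, lower, with a median of 1.19.

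Pathway genes were divided between the 2 kinds of member. Of the BMP list 8 of 18 genes were at least 2-fold higher in <i>Elf5</i>-high members and 1 lower (median log2 difference 0.281). Of the FGF list 2 of 15 were higher and 4 lower (median 0.221). Of the Nodal list 5 of 17 were higher and 4 lower (median 0.104, against 0.02 over all genes). The ligands <i>Bmp2</i>, <i>Bmp4</i>, <i>Bmp7</i> and <i>Bmp8b</i> were all at least 2-fold higher in <i>Elf5</i>-high members, with log2 differences of 3.13, 5.44, 4.62 and 5.66. The FGF ligands <i>Fgf4</i>, <i>Fgf5</i>, <i>Fgf8</i> and <i>Fgf15</i> were lower, with -4.36, -2.72, -2.78 and -3.86, while the receptor <i>Fgfr2</i> was higher, at 121.2 against 3.77 CPM. <i>Nodal</i> (15.9 against 66.1 CPM) and its co-receptor <i>Tdgf1</i> (58.1 against 441 CPM) were lower, and <i>Pcsk6</i>, a convertase of the extraembryonic ectoderm that cleaves the Nodal precursor, was higher (94.5 against 7.88 CPM). Of the core pluripotency list 4 of 14 genes were lower in <i>Elf5</i>-high members (<i>Pou5f1</i>, <i>Nanog</i>, <i>Lin28b</i> and <i>Tdgf1</i>), 3 higher (<i>Dppa2</i>, <i>Dppa4</i> and <i>Esrrb</i>) and 7 within 2-fold. Among the last, <i>Sox2</i> was at 113.6 against 84.5 CPM and <i>Utf1</i>, a chromatin factor, at 577 against 552 CPM.

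The 4 markers of the epiblast that the rule did not name were all highest in the <i>Elf5</i>-low members of replicate 1, and <i>Otx2</i> and <i>Slc7a3</i> by at least 2-fold over each other class. <i>Otx2</i>, a homeobox factor of the formative epiblast, was at 241 CPM in them against 27.8 CPM in <i>Elf5</i>-high members, 67 CPM in the <i>Apoa1</i>-low other cells and 86.9 CPM in the <i>Apoa1</i>-high ones. <i>Slc7a3</i>, a transporter of cationic amino acids, was at 346 CPM against 48, 87.3 and 24 CPM. <i>Fgf5</i> was at 182 CPM against 27.1, 82.1 and 124.2 CPM, and <i>Dnmt3b</i>, a de novo DNA methyltransferase, at 798 CPM against 521, 452 and 494 CPM, so its highest and lowest class of replicate 1 were less than 2-fold apart. The few members elsewhere did not carry these levels. In the 7 members of replicate 2, <i>Otx2</i> was at 13.3 CPM and <i>Slc7a3</i> at 38 CPM, and in the 2 of replicate 3 they were at 38.3 and 2.64 CPM. Their <i>Pou5f1</i> was at 210 and 248 CPM, and <i>T</i> was at 255 and 62.1 CPM against 9.45 CPM in the members of replicate 1. The description that follows therefore rests on replicate 1.

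**Figure D3:**
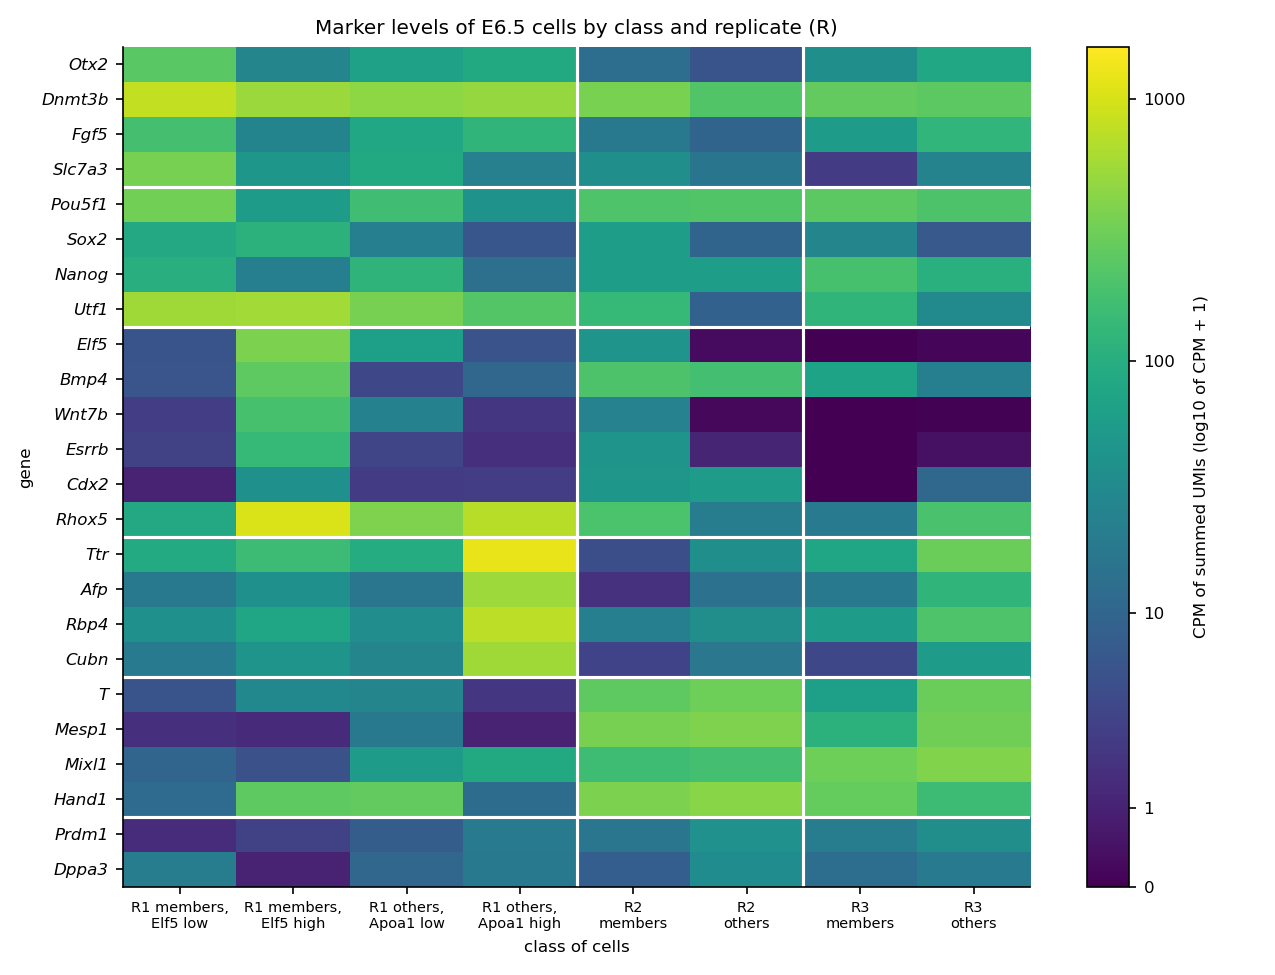
Level of 24 marker genes (rows) in 8 classes of E6.5 cells (columns; R is the replicate), as CPM of the UMIs summed over the class, colour on a log10 scale of CPM + 1, with white lines between marker groups and between replicates. <i>Otx2</i> and <i>Slc7a3</i> are highest in <i>Elf5</i>-low members of replicate 1 (241 and 346 CPM), <i>Elf5</i> and <i>Bmp4</i> in the <i>Elf5</i>-high ones (366 and 256 CPM), and <i>T</i> and <i>Mesp1</i> are higher in replicates 2 and 3 than in any class of replicate 1.

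Against all other cells of replicate 1, 750 of 10473 genes (7.16%) were at least 2-fold higher in the members and 1419 (13.5%) at least 2-fold lower. The rule chose the members inside this contrast, so the counts are a description and were not tested. The genes highest in members relative to the others were <i>Sox2</i> (89 against 13.8 CPM), <i>Uchl1</i> (138.4 against 23.1 CPM), <i>Slc7a3</i> (300 against 52.1 CPM), <i>Map7d3</i> (88.2 against 15.8 CPM) and <i>Phc1</i>, a polycomb subunit (206 against 37.9 CPM). The genes lowest in members relative to the others were <i>Nrk</i>, a kinase of trophoblast (8.55 against 201 CPM), <i>Pla2g12b</i> (10.6 against 219 CPM), <i>Pga5</i> (11.5 against 192 CPM), the zinc transporter <i>Slc39a8</i> (8.07 against 134.2 CPM) and <i>Prss12</i> (8.04 against 132.7 CPM).

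The lists differed in direction. Of the visceral endoderm list 23 of 24 genes were at least 2-fold lower in members (median log2 difference -3.51 against -0.04 over all genes), and of the parietal endoderm list 11 of 11 were (median -2.42). Of the formative and primed list 11 of 21 genes were higher and 1, <i>Cdh2</i> (N-cadherin), lower, with a median of 1.26. Of the core pluripotency list 8 of 14 were higher and none lower. <i>Pou5f1</i> had a log2 difference of 1.46, <i>Sox2</i> of 2.58 and <i>Tdgf1</i> of 1.22, while <i>Nanog</i>, <i>Sall4</i> and <i>Utf1</i> were within 2-fold.

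A narrower contrast, of <i>Elf5</i>-low members against the 70 other cells with <i>Apoa1</i> under 500 CPM, leaves out the <i>Elf5</i>-high members and the cells with at least 500 CPM of <i>Apoa1</i>. In it 623 of 10296 genes (6.05%) were at least 2-fold higher in the members and 1093 (10.6%) lower, again with no test. Genes of trophoblast and mesoderm led the lower side, with <i>Tfap2c</i> at 9.48 against 241 CPM, <i>Hand1</i> at 12.1 against 269 CPM, the placental gene <i>Plac1</i> at 14.1 against 272 CPM and the lamin <i>Lmna</i> at 9.14 against 130.9 CPM. Of the list for extraembryonic ectoderm and trophoblast 19 of 21 genes were lower (median -3.18), and of the primitive streak and mesoderm list 12 of 15 (median -2.25), against -0.02 over all genes. Of these 70 cells, 18 had at least 50 CPM of <i>Elf5</i>. The visceral endoderm list was near balance here, with 4 of 19 genes lower and a median of -0.10. Of the parietal endoderm list 9 of 11 genes were lower (median -2.02), and of the list for maternal decidua 3 of 4 were lower and 1 higher (median -4.79).

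On the higher side of that contrast stood 13 of 21 genes of the formative and primed list, with a median of 1.15. They include <i>Otx2</i> (log2 difference 1.78), <i>Zic2</i> (1.88) and <i>Zic5</i> (1.37), the forkhead factor <i>Foxd3</i> (2.48), <i>Sall2</i> (2.11), <i>Sox3</i> (2.72), <i>Dnmt3a</i> (1.11) and <i>Fgf5</i> (1.08). The leading genes were <i>Zfp462</i> (84.8 against 15.1 CPM), <i>Syt11</i> (76.5 against 16 CPM), the glutamate transporter <i>Slc1a3</i> (69.7 against 14.8 CPM), <i>Sall2</i> (111.7 against 24.6 CPM) and <i>Zbtb8a</i> (70.8 against 16.2 CPM). Of the FGF pathway list 7 of 15 genes were higher and 2 lower. The higher ones were the ligands <i>Fgf4</i> (23.1 against 1.32 CPM), <i>Fgf5</i> and <i>Fgf15</i>, the feedback inhibitors <i>Spry1</i> and <i>Spry4</i>, and the ETS factors <i>Etv4</i> and <i>Etv5</i>, which respond to FGF. <i>Pou5f1</i> (328 against 165 CPM), <i>Nanog</i> (log2 difference -0.30) and <i>Tdgf1</i> (441 against 295 CPM) were within 2-fold.

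Transcripts of tissues outside the epiblast were also counted in the members. <i>Prl3d1</i> and <i>Prl3d2</i>, placental lactogens of trophoblast giant cells, had UMIs in 293 of 293 members of replicate 1, and in 100% and 99.1% of the <i>Apoa1</i>-high cells. The sums were 230 and 207 CPM in <i>Elf5</i>-low members, 211 and 190 CPM in <i>Elf5</i>-high members, 189 and 168 CPM in <i>Apoa1</i>-high cells and 1350 and 1140 CPM in the <i>Apoa1</i>-low others, of which single cells reached 8340 and 7070 CPM. They had 0 UMIs in the 7 and 2 members and the 159 and 94 other cells of replicates 2 and 3, which allows up to 2.29% and 3.85% of the other cells to hold one, at medians of 347741 and 314845 UMIs per cell. Over 21 visceral endoderm genes, the level in <i>Elf5</i>-low members was at a median of 5.25% of that in <i>Apoa1</i>-high cells (from 0.783% for <i>Apoa4</i> to 41.4% for <i>Emb</i>), against 9.68% in <i>Elf5</i>-high members and 6.25% in the <i>Apoa1</i>-low others. <i>Ttr</i>, a thyroid hormone carrier of the endoderm, had a UMI in 291 of 293 members, at a median of 80.7 CPM, and in 100% of the <i>Apoa1</i>-high cells, at a median of 1270 CPM. A UMI of such a gene in a member is therefore not read here as expression, and the source of these transcripts was not tested. Summed levels of the defining lists in <i>Elf5</i>-low members were 1.05 CPM for decidua and 7.27 CPM for blood.

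Few members carried much <i>T</i>. In replicate 1, 40.3% of the 293 members had a <i>T</i> UMI, and after thinning to 50000 UMIs per cell 54 of 286 (18.9%), against 29.2% and 9.0% of the <i>Apoa1</i>-high cells, which should lack it. At least 50 CPM was reached by 16 members, by 8 of 246 <i>Elf5</i>-low and 8 of 47 <i>Elf5</i>-high ones, and by 0 <i>Apoa1</i>-high cells, the highest of which had 38.8 CPM. All 7 members of replicate 2 and 1 of the 2 of replicate 3 reached it. The 16 members were set against the 175 with no <i>T</i> UMI in replicate 1, with no test, and 776 of 10173 genes (7.63%) were at least 2-fold higher and 563 (5.53%) lower in the <i>T</i>-high ones. <i>Elf5</i>-high cells make up 8 of these 16 and 18 of the 175, and their part in the counts was not tested, since 8 <i>Elf5</i>-low cells are under the minimum of 10.

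Of the primitive streak and mesoderm list 11 of 12 measured genes were at least 2-fold higher in <i>T</i>-high members and 1, <i>Lefty2</i>, a Nodal inhibitor, lower (8.63 against 19.3 CPM), with a median log2 difference of 1.93. <i>Sp5</i>, a WNT target, was at 36.6 against 1.37 CPM, <i>Evx1</i> at 35.3 against 2.49 CPM, <i>Mixl1</i> at 47.9 against 4.74 CPM, <i>Wnt3</i> at 42.2 against 10.4 CPM and <i>Fgf8</i> at 184 against 75 CPM. Of these 5 genes, <i>Wnt3</i> and <i>Fgf8</i> were at least 2-fold lower in <i>Elf5</i>-high than in <i>Elf5</i>-low members, <i>Evx1</i> and <i>Mixl1</i> were within 2-fold, and <i>Sp5</i> (2.0 and 4.01 CPM) was below the minimum level. Of the whole streak and mesoderm list 6 of 12 measured genes, <i>T</i> and <i>Eomes</i> among them, were at least 2-fold higher in <i>Elf5</i>-high members and 3 lower. The list for extraembryonic ectoderm and trophoblast was higher as well, in 18 of 24 genes with 1 lower (median 1.97), and it supplied the leading genes, <i>Esrrb</i> (120.8 against 11.6 CPM) and <i>Bmp4</i> (159 against 18.7 CPM), next to <i>Nat8l</i>, <i>Klf5</i> and <i>Zfp42</i>. The genes lowest in <i>T</i>-high members relative to the rest were <i>Gm26707</i> (17.3 against 108.6 CPM), the imprinted <i>Nnat</i> (18.8 against 89.1 CPM), <i>Slc7a3</i> (77.7 against 343 CPM), <i>Celf4</i> (15.5 against 67.5 CPM) and <i>Syt11</i> (19.6 against 81.6 CPM). <i>Otx2</i> was at 74 against 229 CPM, and <i>Cdh1</i> (E-cadherin), at 236 against 244 CPM, did not differ by 2-fold.

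The embryos of E6.5 carry no sex label, and <i>Xist</i>, the RNA that silences 1 X chromosome in female cells, is read beside 4 Y-linked genes (<i>Ddx3y</i>, <i>Eif2s3y</i>, <i>Kdm5d</i> and <i>Uty</i>). In replicate 1, 177 of 293 members had at least 50 CPM of <i>Xist</i>, and 243 had at least 1 UMI of a Y-linked gene. Many members thus held both, and a class of 42 members with <i>Xist</i> and no Y-linked UMI was set against 48 with at least 3 Y-linked UMIs and under 10 CPM of <i>Xist</i>, which left 203 in neither. The first class was shallower, with a median of 203919.5 UMIs against 301189 UMIs. Looser classes, 167 members with at least 50 CPM of <i>Xist</i> and under 20 CPM of Y-linked transcripts against 73 with at least 80 CPM of these, had medians of 369717 and 322356 UMIs. Only 7 members lay between 20 and 80 CPM of Y-linked transcripts.

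**Figure D4:**
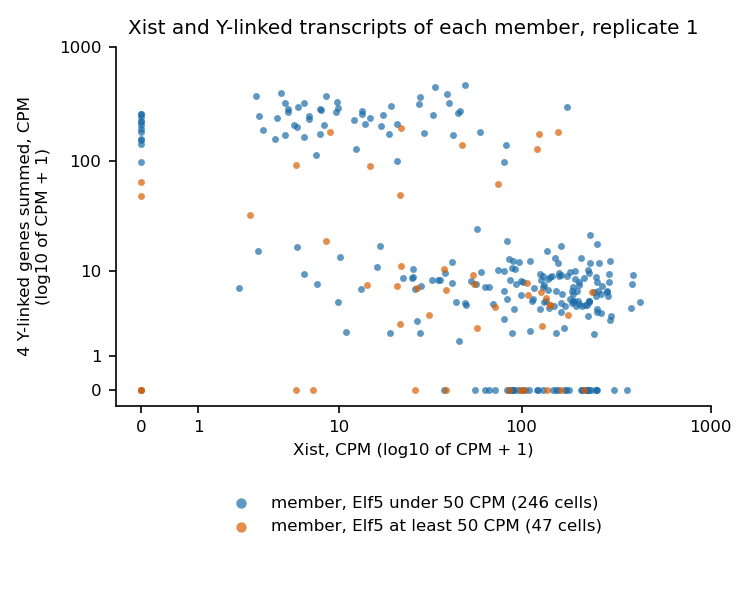
<i>Xist</i> level (x axis) against the summed level of 4 Y-linked genes (y axis) of each member of replicate 1, in CPM on log10 scales of CPM + 1, coloured by <i>Elf5</i> level. Members split at the Y-linked level, with 7 between 20 and 80 CPM, while <i>Xist</i> spreads widely below that split.

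X-linked genes as a whole were not higher in the <i>Xist</i> class. Over 364 of them the median log2 difference was -0.12 (a median level of 0.922 times that of the Y class), against 0.02 over 9558 autosomal genes, and 37.9% of the X-linked and 53.2% of the autosomal genes were higher. In the looser classes the medians were -0.06 over 378 and 0.00 over 9809 genes. Single X-linked genes differed in both directions. <i>Kdm6a</i>, a histone demethylase that escapes X inactivation, was at 56.6 against 28.9 CPM, <i>Bcor</i> at 78.7 against 42.1 CPM and <i>Ftx</i>, a noncoding neighbour of <i>Xist</i>, at 51.5 against 30.4 CPM. <i>Tspan6</i> was lower, at 80.4 against 167 CPM.

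Between the same classes, 220 of 10004 genes (2.2%) were at least 2-fold higher and 231 (2.31%) lower in the <i>Xist</i> class, and none was tested. Among the leading ones were <i>Dusp4</i>, a MAP kinase phosphatase (58 against 18.1 CPM), <i>Olfr1369-ps1</i>, <i>Gm43409</i>, <i>Gfod2</i> and <i>Gm42047</i>, and on the lower side <i>Parvb</i> (18.5 against 63.1 CPM), <i>Id1</i>, a BMP target (47.3 against 139.5 CPM), <i>Gstm5</i> and <i>Flywch2</i>. <i>Dusp4</i> and <i>Id1</i> kept a 2-fold difference in the looser classes, at 55.9 against 21.8 and 77.4 against 160 CPM. <i>Fgf4</i> was at 27 against 6.8 CPM and at 24 against 9.96 CPM. The genes measured here include <i>Pou3f1</i>, which chose the members. None of the epiblast, core pluripotency, formative or glycolysis genes measured differed by 2-fold between the classes in either definition. With <i>Elf5</i>-low members alone, 2 core pluripotency genes did, <i>Dppa4</i> (69.9 against 18.2 CPM) and <i>Dppa2</i> (20.8 against 4.43 CPM), and none of the other 3 lists.

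The rule was applied to E7.5, when the epiblast is consumed by gastrulation, and kept 17 of 887 cells. These were 8 of 468 in replicate 1, 9 of 277 in replicate 2, and 0 of 95 and 0 of 47 in replicates 3 and 4, where a count of 0 allows up to 3.81% and 7.55%. Too few cells were left for the comparison as designed. An added fit over the 5 replicates with at least 2 cells (edgeR's quasi-likelihood test) called 0 of 11268 genes higher (0.0%) and 0 lower (0.0%) at a false discovery rate of 0.05, 345 having an unadjusted p below 0.05, while DESeq2 called 10 higher and 3 lower. The spread between the E6.5 replicates was wide. <i>Otx2</i> was at 208, 13.3 and 38.3 CPM in E6.5 replicates 1 to 3 and at 54.2 and 21.3 CPM in E7.5 replicates 1 and 2. <i>T</i> was at 9.45, 255 and 62.1 CPM against 325 and 188 CPM, and <i>Utf1</i> at 556, 137.9 and 121.6 CPM against 99.3 and 104.4 CPM. <i>Pou5f1</i> was at 285, 210 and 248 CPM against 296 and 245 CPM, with a log2 difference of -0.16 ± 0.23 (SE).

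The members of replicate 1 were last compared with the BVSC-positive germ cells of E9.5 and E10.5, which were chosen by the sort and not by transcripts. These 5 pools of at least 92 cells held 152694019 UMIs, and all their cells had at least 50 CPM of <i>Dppa3</i>. The E6.5 side is 1 replicate, and edgeR's test assumes that it varies like the later ones. With that assumption 1219 of 18346 genes (6.64%) were higher and 1436 (7.83%) lower in the members at a false discovery rate of 0.05. The design shows a difference between time-points, pools and tissues together. Sex was not matched either, and <i>Xist</i> had a log2 difference of 3.53. All values below were fitted with the 47 <i>Elf5</i>-high members, and counts for <i>Elf5</i>-low members alone are given where a list described here differs.

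Genes of the formative and primed state were higher in the members, 16 of 21 tested, with 3 lower and a median log2 difference of 3.71 against -0.05 over all genes. <i>Dnmt3b</i> was at 755 CPM in the members and at 6.21 and 1.02 CPM at E9.5 and 2.95, 2.04 and 14.8 CPM at E10.5, a log2 difference of 7.14 ± 0.78 (SE, adjusted p = 0.000199 by edgeR). <i>Otx2</i> was at 208 CPM and at 1.56, 2.39, 1.09, 4.49 and 13.1 CPM in the same order (5.54 ± 0.80, edgeR adjusted p = 0.00115). <i>Pim2</i>, a serine kinase of pluripotent cells, was at 481 CPM against 10.9, 13.5, 10.8, 10.2 and 7.55 CPM (5.52 ± 0.23, edgeR adjusted p = 6.44e-07). The 3 genes are among the 5 largest rises by the naming rule, which admits only genes whose sums do not overlap between the sides.

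The other 2 of those 5 are the placental lactogens described above. <i>Prl3d1</i> had 21954 UMIs in the members and 1 in the 5 later pools, and <i>Prl3d2</i> 19771 and 0, at least 10400-fold higher against a floor of 3 counts over the later pools. <i>Foxd3</i> had 3838 UMIs and 1, <i>Zic2</i> 3473 and 2, and <i>Fgf4</i> 1902 and 0, at least 1000-fold higher. <i>Sall2</i> (97.2 against 2.33 ± 0.89 CPM, SD, n = 5), <i>Zic5</i> (log2 difference 7.58, with 0.706 ± 1.22 CPM in the later pools), <i>Sox11</i> (156 against 12.1 ± 5.05 CPM) and <i>Tcf7l1</i>, a repressor of WNT target genes (120.2 against 5.87 ± 2.53 CPM), were called as well. The 3 lower genes included <i>Etv5</i> and <i>Lef1</i>, and with <i>Elf5</i>-low members <i>Etv5</i> and <i>Lef1</i> both lost the call (edgeR adjusted p = 0.0714 and 0.09), which left 16 higher and 1 lower.

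Germ cell genes were lower in the members, 13 of 17 tested, with none higher and a median log2 difference of -3.73. With <i>Elf5</i>-low members 13 were lower, <i>Rhox5</i> having gained and <i>Irf1</i> lost the call, and 1, <i>Lin28a</i>, an RNA-binding protein of pluripotent cells, higher (210 against 110.5 CPM, edgeR adjusted p = 0.049). The reporters of the sort are those of <i>Prdm1</i> and <i>Dppa3</i>, so these genes had to differ. <i>Dppa3</i> was at 17.9 CPM in the members and at 821 and 901 CPM at E9.5 and 913, 824 and 830 CPM at E10.5. <i>Prdm1</i> was at 1.83 CPM against 81.2 to 151 CPM. <i>Prdm14</i>, a regulator of PGC specification, had 1 UMI in the 293 members and 11707 in the later pools, a ratio of 7410 (95% counting interval 1330 to 293000). <i>Nanos3</i>, needed for PGC survival, was at 0.569 CPM against 110.5 ± 19.9 CPM, and <i>Tfap2c</i> at 37.5 against 289 ± 39.9 CPM (9.48 CPM in <i>Elf5</i>-low and 190 CPM in <i>Elf5</i>-high members). The receptor <i>Kit</i> was at 6.9 against 136.9 ± 42 CPM and <i>Dnd1</i>, an RNA-binding protein of germ cells, at 20.9 against 279 ± 52.2 CPM.

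The largest falls by the naming rule were <i>Gm3143</i> (0 UMIs in the members and 9077 in the later pools, at least 1910-fold lower), <i>Prdm14</i>, <i>BC048679</i> (2 and 20154 UMIs), the LIM homeobox gene <i>Isl2</i> (0.0517 against 156 ± 27.6 CPM) and the insulin gene <i>Ins2</i> (0.0621 against 71.5 ± 22.6 CPM). Among the genes tied by the study to specification PGCs, <i>Porcn</i>, which acylates WNT ligands, was at 4.93 against 152 ± 23.3 CPM, <i>Elf3</i> at 18.3 against 120.9 ± 9.94 CPM and <i>Slpi</i> at 1.96 against 90.5 ± 31.6 CPM, and these were lower in members with and without the <i>Elf5</i>-high cells. <i>Irf1</i> was lower with all members (edgeR adjusted p = 0.0308) and not with <i>Elf5</i>-low ones (0.0686). <i>Rbm47</i> was the reverse, at 52.9 CPM in all and 29.3 CPM in <i>Elf5</i>-low members against 90.3 ± 13.3 CPM (edgeR adjusted p = 0.0823 and 0.00354).

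**Figure D5:**
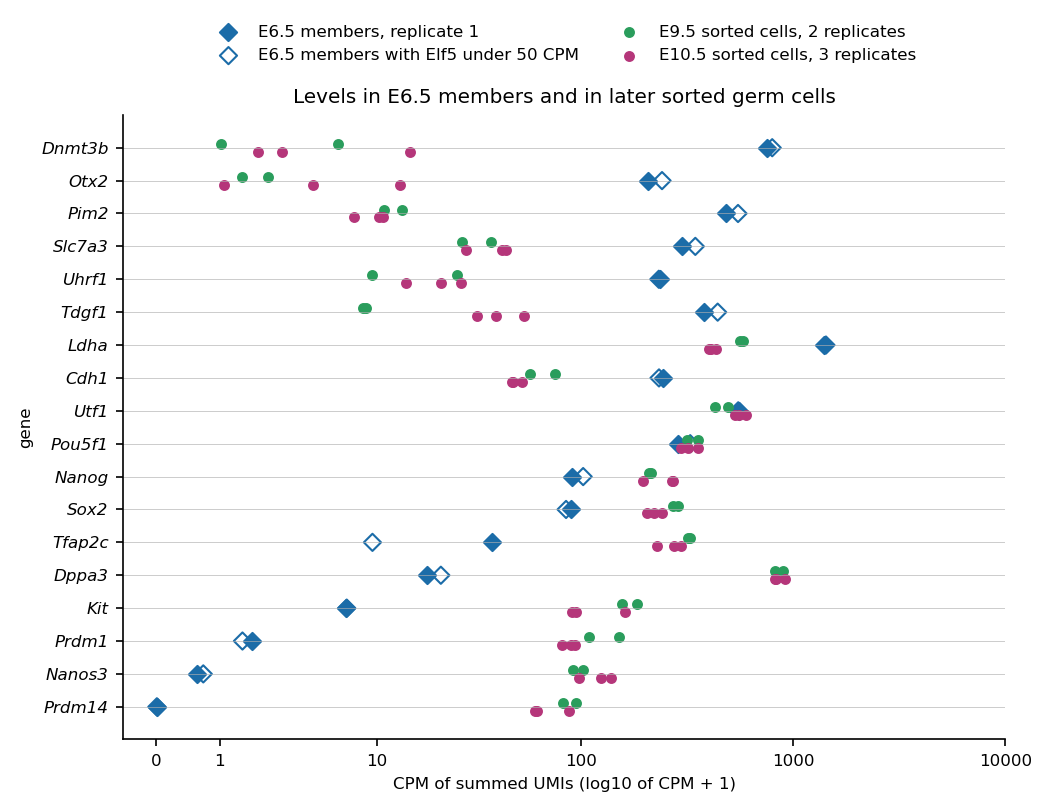
Level of 18 genes (rows) in CPM of summed UMIs, on a log10 scale of CPM + 1, in the E6.5 members of replicate 1 (filled diamonds), the <i>Elf5</i>-low members among them (open diamonds) and the sorted germ cells of E9.5 and E10.5 (a point per replicate). <i>Dnmt3b</i>, <i>Otx2</i> and <i>Pim2</i> lie to the right of all 5 later pools and <i>Prdm14</i>, <i>Nanos3</i> and <i>Prdm1</i> to the left, while <i>Pou5f1</i> and <i>Utf1</i> lie among or next to them.

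The 3 core factors were not alike. <i>Pou5f1</i> was at 285 CPM in all and 328 CPM in <i>Elf5</i>-low members, against 317, 358, 355, 320 and 295 CPM in the later pools, a log2 difference of -0.19 ± 0.17 (edgeR adjusted p = 0.528). <i>Sox2</i> was at 89 CPM against 273, 287, 221, 242 and 204 CPM (-1.45 ± 0.22, edgeR adjusted p = 0.00182), and <i>Nanog</i> at 89.7 CPM against 210, 214, 271, 269 and 197 CPM (-1.36 ± 0.24, edgeR adjusted p = 0.00364). Of the naive list 8 of 13 genes were lower, among them <i>Klf2</i> (4.92 against 145.5 ± 45.4 CPM), <i>Tfcp2l1</i> (8.93 against 67.3 ± 6.06 CPM) and <i>Nr5a2</i> (0.259 against 28 ± 3.3 CPM), and 1, <i>Fgf4</i>, higher. <i>Zfp42</i> and <i>Nr0b1</i> were added to the lower genes with <i>Elf5</i>-low members, in which they were at 11.8 and 4.23 CPM against 332 and 121.6 CPM in <i>Elf5</i>-high ones, so that 10 were lower and 1 higher.

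Of the list for DNA methylation and demethylation 4 of 10 genes were higher in the members, <i>Dnmt3b</i> among them, and 1, <i>Tet2</i>, lower. With <i>Elf5</i>-low members <i>Tet3</i> joined the higher genes (31 against 5.05 CPM, edgeR adjusted p = 0.0431), which made 5. <i>Uhrf1</i>, which brings the maintenance methyltransferase to replicated DNA, was at 235 CPM against 19.2 ± 7.3 CPM (log2 difference 3.63 ± 0.37, edgeR adjusted p = 0.000135), <i>Dnmt3a</i> at 375 against 59.1 ± 9.5 CPM, and <i>Dnmt3l</i> at 35.7 against 0.102 ± 0.146 CPM. <i>Dnmt1</i> was at 163 against 218 ± 35.3 CPM and <i>Tet1</i> at 258 against 247 ± 50.2 CPM, and neither passed the test. Of the glycolysis list 12 of 20 genes were higher and none lower, with a median of 0.67. <i>Ldha</i>, which makes lactate, was at 1400 against 478 ± 87.1 CPM, and <i>Slc16a3</i>, which exports it, at 485 against 42.4 ± 16.3 CPM. With <i>Elf5</i>-low members 2 genes of this list, <i>Hk1</i> and <i>Pfkp</i>, were lower. <i>Myc</i> was at 161 against 3.77 ± 3.34 CPM and <i>Ccnd1</i> at 213 against 9.04 ± 1.66 CPM. Of the list for cyclins, CDKs and inhibitors 3 of 24 genes were higher and 5 lower, with a median of -0.037. With <i>Elf5</i>-low members 4 were higher and 5 lower.

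Of the list for epithelial junctions and adhesion 8 of 25 genes were higher and 5 lower in the members, and 6 higher and 4 lower with <i>Elf5</i>-low ones, in which <i>Cldn3</i>, <i>Snai1</i> and <i>Vim</i> lost the call. <i>Cdh1</i> was at 245 against 55.5 ± 11.7 CPM (log2 difference 2.16 ± 0.22, edgeR adjusted p = 0.000145), and the integrin <i>Itga6</i> at 62.4 against 3.19 ± 1.32 CPM. <i>Fn1</i> (fibronectin, 39.8 against 195 ± 32.9 CPM) and <i>Zeb1</i>, a repressor of <i>Cdh1</i> (1.09 against 17.3 ± 5.11 CPM), were lower. Of the FGF list 6 of 17 genes were higher, the ligands <i>Fgf4</i>, <i>Fgf5</i>, <i>Fgf8</i> and <i>Fgf15</i> and the inhibitors <i>Spry2</i> and <i>Spry4</i>, and 1 was lower, <i>Etv5</i> with all members and <i>Fgfr2</i> with <i>Elf5</i>-low ones. Of the list for extraembryonic ectoderm and trophoblast 9 of 25 genes were higher and 5 lower with all members, and 1, <i>Dnmt3l</i>, higher and 7 lower with <i>Elf5</i>-low ones. <i>Bmp4</i>, at 44.8 CPM against 6.63 ± 3.48 CPM, was at 5.98 CPM in <i>Elf5</i>-low members (edgeR adjusted p = 0.00793 and 0.957, with log2 differences of 2.78 and -0.10). <i>T</i>, at 9.45 against 0.277 ± 0.344 CPM, was called with all members and not with <i>Elf5</i>-low ones (edgeR adjusted p = 0.046 and 0.101). E10.5 replicate 3, which held 17 cells with at least 500 CPM of <i>Apoa1</i>, carried 164 CPM of <i>Ttr</i> against 0.175 to 3.58 CPM in the other 4 pools, and of the visceral endoderm list 2 of 26 genes, <i>Lrp2</i> and <i>Emb</i>, were called. Without that replicate, 0 of the 130 called genes of the lists lost the call.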

How the data were processed

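UMI counts per gene and cell were deposited by the authors without normalization. Per the labels and the methods of the study, the authors extracted barcodes and UMIs with UMI-tools and mapped reads to mm10 with STAR. They assigned reads to genes with featureCounts of Subread and counted UMIs with UMI-tools (the labels also name CASAVA 1.8). Labels of the libraries name no group, so time-point, replicate, genotype and gate came from the deposited table of cells. The count table held 31053 genes, and in the 2168 cells read each sum equalled the transcript number of that table. Of 768 E6.5 cells, 731 passed the filter. No doublet caller was run, since cells were picked or sorted singly. CPM are counts per 1000000 UMIs of a cell or a sum, and intervals of shares are exact binomial (Clopper-Pearson, 95%).

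The members, the 26 gene lists, the classes and the tests were chosen with earlier results of these data known. Counts were summed per replicate and class, over at least 10 cells (at least 2 in the added fit for E7.5). Where at least 2 sums stood on 1 side, edgeR's quasi-likelihood test was used (TMM, filterByExpr, Benjamini-Hochberg over all genes, false discovery rate 0.05), and otherwise a difference of at least 2-fold among genes with a mean of at least 5 CPM was counted, with no test. For E6.5 cells the design had planned tests over replicates with a replicate block. <i>Pou3f1</i> and <i>Apoa1</i> were left out of the fits, except those between <i>T</i> classes and between <i>Xist</i> and Y classes of members. <i>Elf5</i>, <i>T</i>, <i>Xist</i> and the Y-linked genes were left out of the contrasts that they split. <i>Elf5</i> stayed in where a fit only limited the members to <i>Elf5</i>-low ones. Log2 differences of contrasts without a test use a prior count of 2. Genes were named from the lists, from those that the study ties to specification PGCs and, per comparison, as the 5 furthest up and the 5 furthest down among called genes whose sums did not overlap and whose mean log2 CPM reached 5. Some genes that this rule names are not reported here. For contrasts without a test, the 2-fold criterion took the place of the false discovery rate in this rule. The scripts were tested on simulated data with 200 changed genes. Versions were edgeR 4.0.16, limma 3.58.1, DESeq2 1.42.0, R 4.3.3 and Python 3.11.15. Alternatives were other size factors, no filter on low counts, DESeq2, each replicate left out, other thresholds, cells thinned to 50000 UMIs and, added after the data were seen, members with under 50 CPM of <i>Elf5</i>.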

Additional observations from a re-analysis of the deposited data

Results flagged for a closer look

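Of 24 groups of 5 pools or libraries tested for 12 genes, 2 held a value far from the other 4, and chance gives about 1 in 20. <i>Otx2</i> was highest in the sorted cells of E10.5 replicate 3, at 13.1 CPM against 1.09 to 4.49 CPM in the other pools, which leaves it below the 208 CPM of the members. <i>Kit</i> was highest in the <i>Elf5</i>-low members of 1 library of replicate 1, at 12 CPM against 3.84 to 5.7 CPM in the other 4 libraries.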

How the results depend on the processing

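The results rest on 1 replicate with 293 members. At the planned thresholds and minimum of 10 cells, no paired analysis was possible because only replicate 1 held enough cells in both classes, and DESeq2 and leaving out replicates could not be run for contrasts inside E6.5. The share of members in replicate 1 moved to 52.5% with <i>Pou3f1</i> of at least 100 CPM, to 48.2% with <i>Apoa1</i> under 250 CPM and to 52.5% with <i>Elf5</i>-low members only. The share of genes at least 2-fold apart between members and other E6.5 cells (20.7%) became 37.4% without the filter on low counts, 13.3% with <i>Apoa1</i> under 250 CPM and 13.3% against <i>Apoa1</i>-low others only. With <i>Pou3f1</i> of at least 25 CPM replicate 2 entered and a test could be fitted with the replicates paired as blocks. That test called 83 of 16703 genes (0.497%), 7 higher and 76 lower in the members. No blocked fit was run with fewer cells per class. Without the filter the share was 35.1% for <i>T</i>-high against <i>T</i>-negative members (13.2% with it) and 21.7% for the <i>Xist</i> against the Y class (4.51% with it, and 1.34% in the looser classes). For E6.5 against E7.5 cells the 0 calls became 233 without the filter and 13 by DESeq2, and leaving out each replicate gave 0 to 3 calls, the 3 without E6.5 replicate 2. With <i>Pou3f1</i> of at least 25 CPM at both time-points, which gave the 10 cells of the planned design in 2 replicates of each, the count was 0 of 12907 genes. Members against later germ cells gave 4262 calls against E9.5 only (2655 in all) and 2141 to 3042 with each later pool left out. Of the 130 list genes called, 17 lost the call with <i>Elf5</i>-low members, and 3 of these, <i>Bmp4</i>, <i>Cldn3</i> and <i>Wnt7b</i>, changed sign.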
